A study of Mus musculus with 12 samples.

Results

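Stra8 and 9 other genes of the germ line and of meiosis were followed across the 12 arrays of this series, out of 19938 genes measured. The 10 genes were taken by name: Stra8, Dazl, Ddx4, Sycp1, Sycp3, Mael, Rec8, Prdm1, Tfap2c and Kit. Each was represented by a single probe set that carries no other gene's symbol. The samples came from a clone of D3, a mouse embryonic stem (ES) cell line, and formed 4 groups of 3 biological replicates. The groups were embryoid bodies (EBs) exposed for 12 h to 5 micromolar all-trans retinoic acid (ATRA, a signalling derivative of vitamin A), EBs exposed for 12 h to the solvent DMSO, untreated EBs at day 4, and undifferentiated ES cells at day 0. EBs are aggregates formed on bacteriological dishes after LIF, the cytokine that maintains ES cells, was withdrawn, so the 3 EB groups share aggregation and the lack of LIF. Whether the 12 h of treatment came after day 4 or ended on it is not clear from the labels. All 4 groups derive from 1 clone, and an EB holds several cell types.

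Retinoic acid is a trigger of meiosis in the fetal ovary and the postnatal testis, where it induces Stra8 in germ cells. STRA8 then activates genes of the meiotic chromosome, and Rec8, which encodes a meiotic cohesin, is also known as a retinoic acid target. Competence for this response needs the RNA-binding protein DAZL, whereas PRDM1 and TFAP2C act earlier, when primordial germ cells are set aside in the epiblast. Many germ line genes, Dazl, Ddx4, Mael, Sycp1 and Sycp3 among them, are kept silent in somatic cells by DNA methylation of CpG-rich promoters, and in ES cells a Polycomb complex that contains MGA, MAX and E2F6 represses part of them through E-box and E2F motifs.

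The promoter windows of Stra8, Dazl, Mael and Sycp1 are shown because these 4 genes were the members lower in day 4 EBs than in ES cells, and because Stra8 had the largest fitted rise of all genes with ATRA. The windows come from RefSeq (build GRCm38.p6), are written 5′ to 3′ on the gene's strand and run from 250 bases before to 50 bases after a transcript start. In Stra8, capitals mark AGGTCA, the core element of retinoic acid receptor sites. In the other windows, capitals mark the E-box CACGTG and the E2F motif GGCGGGA on either strand.
Stra8, chr6:34920698-34920997, plus strand: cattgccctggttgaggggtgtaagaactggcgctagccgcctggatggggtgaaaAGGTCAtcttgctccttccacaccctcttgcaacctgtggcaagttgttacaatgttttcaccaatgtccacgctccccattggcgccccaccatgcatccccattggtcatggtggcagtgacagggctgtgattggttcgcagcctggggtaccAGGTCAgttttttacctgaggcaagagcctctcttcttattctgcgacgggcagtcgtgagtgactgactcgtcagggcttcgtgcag
Dazl, chr17:50293571-50293870, minus strand: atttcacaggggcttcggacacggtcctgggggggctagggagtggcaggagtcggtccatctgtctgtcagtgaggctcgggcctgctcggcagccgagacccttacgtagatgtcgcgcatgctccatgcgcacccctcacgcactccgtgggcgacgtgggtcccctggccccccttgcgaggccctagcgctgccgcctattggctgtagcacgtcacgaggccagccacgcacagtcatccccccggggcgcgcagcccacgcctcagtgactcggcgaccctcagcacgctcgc
Mael, chr1:166238695-166238994, minus strand: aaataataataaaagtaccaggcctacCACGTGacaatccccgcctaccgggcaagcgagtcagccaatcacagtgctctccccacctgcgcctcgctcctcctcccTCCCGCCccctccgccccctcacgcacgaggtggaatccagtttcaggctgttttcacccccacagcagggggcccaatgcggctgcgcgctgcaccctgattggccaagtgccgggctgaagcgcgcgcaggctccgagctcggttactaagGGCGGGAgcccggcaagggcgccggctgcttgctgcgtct
Sycp1, chr3:102936051-102936350, minus strand: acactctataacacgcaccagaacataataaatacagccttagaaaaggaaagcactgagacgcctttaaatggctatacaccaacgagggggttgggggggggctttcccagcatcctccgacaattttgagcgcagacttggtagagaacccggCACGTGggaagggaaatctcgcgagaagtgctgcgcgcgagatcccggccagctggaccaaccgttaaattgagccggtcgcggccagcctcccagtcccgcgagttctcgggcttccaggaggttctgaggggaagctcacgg
In the same build, Stra8 spans chr6:34920163-34939344, Dazl chr17:50279393-50293620, and the other genes lie on chromosomes 1 (Mael), 2 (Tfap2c), 3 (Sycp1), 5 (Kit), 10 (Sycp3 and Prdm1), 13 (Ddx4) and 14 (Rec8). Windows were matched for 9 of the 10 genes, not for Tfap2c. For Stra8, Ddx4 and Prdm1 the whole window lies inside the gene's span, so the transcript start used is not the outermost one. The Stra8 window held AGGTCA 2 times, beginning at positions -194 and -38 relative to the start, and 1.81% of all 32851 windows held 2 or more copies on either strand. It held no direct repeat of such elements at a spacing of 1, 2 or 5 bases, which 0.588% of windows had. That search took AGGTCA as well as GGGTCA, and AGTTCA as well as GGTTCA, on both strands, and its repeats contain the single matches. Sycp3 held 1 AGGTCA, and 16.3% of all windows held at least 1. The E-box CACGTG stood in the windows of Ddx4, Sycp1, Mael and Sycp3, with 2 copies in Sycp3, against 7.15% of all windows. GGCGGGA was found in Ddx4, Mael (2 copies) and Kit, against 11.3% of all windows. CpG counts were 38 in Ddx4, 28 in Dazl, 24 in Mael, 21 in Sycp1 and 15 in Sycp3. They were 20 and 21 in the Kit windows, 20 in Prdm1, 18 in Rec8 and 10 in Stra8. Over all windows the median was 7 and the 75th percentile 20. The GC content was 55.7% in the Stra8 window and 68.7% in the Dazl window, with a median of 52.7% over all windows. These are matches of letters in short windows, and neither binding nor methylation was measured here.

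Values below are on the log2 scale of the deposited arrays. Levels are means ± SD over 3 arrays, and differences are limma estimates ± SE from 1 fit to all 12 arrays, with 19938 genes tested, two-sided, and p-values adjusted by Benjamini-Hochberg. "Rose", "fell" and "passed" refer to an adjusted p under 0.05. The labels call the replicates biological without naming separate cultures, so p-values measure the spread between these samples. Array medians lay between 7.76 and 7.86, and no detection calls were used here. As a mark of low signal, 1027 olfactory receptor genes had a 5th to 95th percentile range of 3.71 to 7.08, and the mean levels of Stra8 in the DMSO and day 4 EB groups, of Sycp1 in the ATRA and DMSO groups and of Sycp3 in day 4 EBs lay below its upper end. Differences that rest on such a level, those of list genes included, depend on low signal. The interquartile range of values was smallest on EB 2 (3.5043) and ES 2 (3.4996) and at most 3.6509 elsewhere. The 8 pluripotent cell markers, Pou5f1 and Nanog among them, averaged 12.52 to 12.54 on the ATRA arrays, 12.68 to 12.70 with DMSO, 12.65 to 12.70 in day 4 EBs and 12.64 to 12.69 in ES cells. Each sample is bulk RNA, in which fewer cells of a type and less RNA per cell cannot be told apart.

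**Figure D1:**
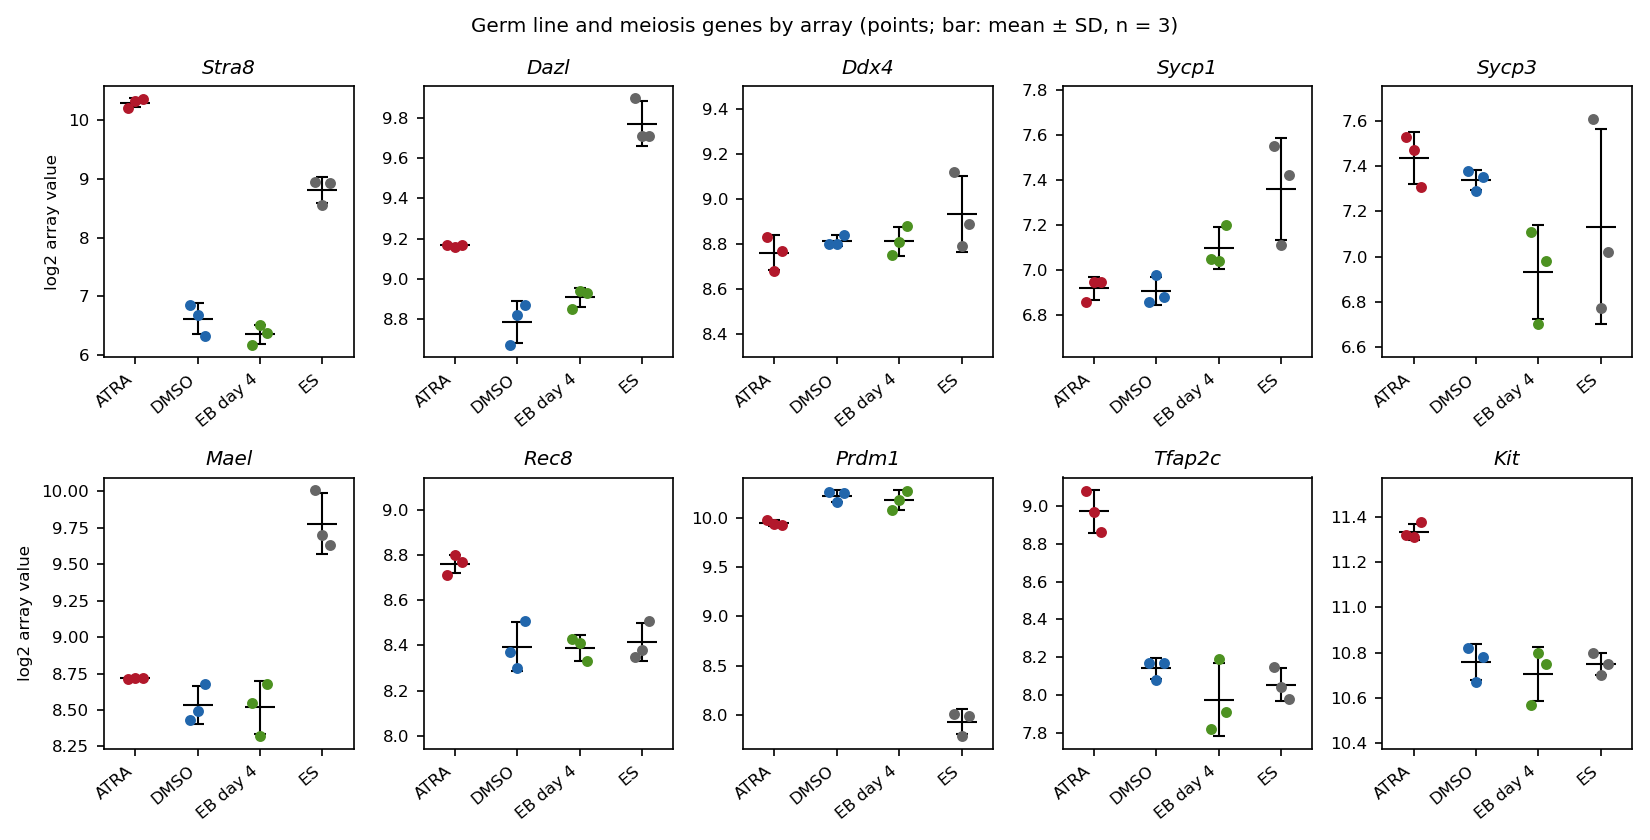
Log2 array value (y axis, a separate scale per panel) of the 10 genes in the ATRA, DMSO, day 4 EB and ES groups (x axis). Points are arrays, and bars give the mean and SD of 3 arrays. Stra8 lay between 10.21 and 10.36 with ATRA, above every other array, and Prdm1 was lowest on the 3 ES arrays.

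ATRA-treated and DMSO-treated EBs share the solvent and the 12 h, and their comparison gave the response to ATRA. Stra8, the meiotic entry gene, stood at 10.21, 10.34 and 10.36 in ATRA-treated EBs, against 6.85, 6.68 and 6.32 in DMSO-treated EBs. The groups did not overlap, and the ATRA arrays lay closer together than the DMSO arrays. The difference of 3.68 ± 0.14 (12.9-fold, adjusted p = 9.60e-09, limma) was the largest fitted rise among all 19938 genes. The DMSO level lay within the low-signal range given above, and against the upper end of that range the rise was at least 9.32-fold. Of the 10 germ line genes, 5 rose (Stra8, Dazl, Rec8, Tfap2c and Kit), 1 fell (Prdm1) and 4 did not pass (Ddx4, Sycp1, Sycp3 and Mael). Over all genes, 13.3% passed, 6.26% higher and 7.05% lower. For 7 of the 10 genes the 3 ATRA values did not overlap the 3 DMSO values, as for 39.6% of all genes. The median difference of the 10 genes was 0.27, and that of all genes 0.01.

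Tfap2c encodes a transcription factor of primordial germ cells that is also active in trophoblast. It read 9.08, 8.97 and 8.86 with ATRA, against 8.17, 8.08 and 8.17 with DMSO. All ATRA arrays were higher, by 0.83 ± 0.09 (1.78-fold, adjusted p = 5.42e-05, limma). Kit, the gene of the receptor for stem cell factor on which primordial germ cells and spermatogonia depend, read 11.32, 11.31 and 11.38 with ATRA, against 10.82, 10.67 and 10.78 with DMSO. Again the groups did not overlap, and the rise was 0.58 ± 0.06 (1.49-fold, adjusted p = 6.22e-05). Of 9 measured trophoblast markers, 0 rose and 2 fell in limma, and their mean level was 7.49 to 7.54 on the ATRA arrays and 7.64 to 7.71 on the DMSO arrays. Of 8 measured blood and mast cell markers, for which Kit is also known, 1 rose and 0 fell, with mean levels of 6.74 to 6.85 with ATRA and 6.73 to 6.78 with DMSO. The part of such cells in the rises was not tested.

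Dazl, which encodes the RNA-binding protein that licenses germ cells for sexual differentiation, read 9.17, 9.16 and 9.17 in ATRA-treated EBs, against 8.67, 8.82 and 8.87 in DMSO-treated EBs. Its rise of 0.38 ± 0.06 (1.30-fold) had an adjusted p of 0.00159 in limma. Rec8, the meiotic cohesin gene, read 8.71, 8.80 and 8.77 with ATRA, against 8.37, 8.30 and 8.51 with DMSO, a rise of 0.37 ± 0.06 (1.29-fold, adjusted p = 0.00182). For both genes every ATRA array lay above every DMSO array, by far less than for Stra8. Prdm1, which encodes the zinc finger repressor that starts the primordial germ cell programme, read 9.98, 9.94 and 9.93 with ATRA, against 10.27, 10.16 and 10.26 with DMSO. It fell by 0.28 on the log2 scale (SE 0.07, adjusted p = 0.0179), and all 3 ATRA values were below the DMSO values. The Prdm1 call ended without ATRA 2, ATRA 3, DMSO 1 or DMSO 3, each left out alone (difference -0.27 to -0.26, adjusted p 0.063 to 0.0697 in limma). PRDM1 is also active in visceral endoderm, and of 12 markers of that tissue 1 rose and 4 fell with ATRA, with mean levels of 9.80 to 9.96 with ATRA and 9.95 to 10.14 with DMSO. Against day 4 EBs, where Prdm1 was also lower with ATRA, 5 of these markers were higher and 0 lower in limma, and 18.4% of all genes passed. With DMSO against day 4 EBs, 5 markers were likewise higher and 0 lower. There 0.747% of all genes passed, and Prdm1 did not.

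The 4 remaining genes gave differences smaller than those of the genes that passed. Sycp3, an axial element gene of the synaptonemal complex, read 7.53, 7.47 and 7.31 with ATRA, against 7.38, 7.29 and 7.35 with DMSO, and the groups overlapped (0.10 ± 0.17, 95% interval -0.27 to 0.46). Sycp1, which encodes the transverse filament of that complex, averaged 6.92 ± 0.05 with ATRA and 6.91 ± 0.06 with DMSO (SD, n = 3; 95% interval of the difference -0.19 to 0.22). Ddx4, the germ cell RNA helicase gene also called Vasa, averaged 8.76 ± 0.08 with ATRA and 8.81 ± 0.02 with DMSO (95% interval -0.22 to 0.11). Mael, a piRNA pathway gene, read 8.71, 8.72 and 8.72 with ATRA, against 8.43, 8.49 and 8.68 with DMSO. Its groups did not overlap, but the difference of 0.18 ± 0.11 did not pass (adjusted p = 0.318, limma). These intervals allow a change of up to 0.46 on the log2 scale for Sycp3 and up to 0.42 for Mael.

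Between day 4 EBs and ES cells, aggregation, loss of LIF and time differ together. Stra8 fell in this step: it read 6.17, 6.50 and 6.37 in day 4 EBs, against 8.95, 8.55 and 8.93 in ES cells, a difference of -2.47 ± 0.14 (5.52-fold lower as fitted, adjusted p = 3.95e-08, limma). The EB level lay within the low-signal range, and against its upper end Stra8 was at least 3.32-fold lower. The groups lay far apart relative to their spread. Mael read 8.55, 8.32 and 8.68 in day 4 EBs, against 10.01, 9.70 and 9.63 in ES cells (-1.26 ± 0.11, 2.40-fold lower, adjusted p = 1.50e-06). Dazl read 8.85, 8.94 and 8.93 in day 4 EBs, against 9.90, 9.71 and 9.71 in ES cells (-0.87 ± 0.06, 1.82-fold lower, adjusted p = 4.73e-07). Both genes had all EB arrays below all ES arrays. Sycp1 read 7.05, 7.04 and 7.20 in day 4 EBs, against 7.55, 7.11 and 7.42 in ES cells, with overlapping groups (-0.26 ± 0.09, adjusted p = 0.0472). The Sycp1 call ended without EB 1, EB 2, ES 1 or ES 3, each left out alone (difference -0.24 to -0.17, adjusted p 0.119 to 0.166).

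Prdm1 moved the other way and had the 15th largest rise of all genes. It read 10.08, 10.18 and 10.28 in day 4 EBs, against 8.01, 7.78 and 7.99 in ES cells, a rise of 2.26 ± 0.07 (4.77-fold, adjusted p = 2.50e-10, limma). All 12 visceral endoderm markers, Ttr, Sox17 and Hnf4a among them, passed as higher in the same comparison, with mean levels of 9.56 to 9.74 in day 4 EBs and 8.44 to 8.49 in ES cells, and their part in the Prdm1 rise was not tested. Ddx4, Sycp3, Rec8, Tfap2c and Kit did not pass, with differences between -0.20 and -0.03. In all, 1 of the 10 genes rose and 4 fell, where 34.7% of all genes passed, 17.8% higher and 16.9% lower. The groups did not overlap for 4 of the 10 genes and for 41.3% of all genes.

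Within the ES group, 9 of the 10 genes were highest in ES 1, the exception being Rec8, and 6 were lowest in ES 2. Over all genes, ES 1 was the highest array for 32.4% and ES 2 the lowest for 30.7%. The widest spread was that of Sycp3, which read 7.61, 6.77 and 7.02 in ES cells. The 5 measured markers of 2-cell-like cells, a rare state of ES cultures, had a mean level of 10.06 in ES 1, 9.62 in ES 2 and 9.79 in ES 3, against 6.74 to 6.90 in day 4 EBs, and all 5 passed as lower in the EBs. The 12 fibroblast markers averaged 8.85 to 8.95 in day 4 EBs and 9.89 on each ES array (9.885 to 9.894), and 9 passed as lower. The part of such cells in the lower values of Stra8, Mael, Dazl and Sycp1 was not tested. Without ES 2 and EB 2 together, Stra8 differed between day 4 EBs and ES cells by -2.67, Mael by -1.21, Dazl by -0.91, Sycp1 by -0.36 and Prdm1 by 2.18, and all 5 passed.

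DMSO-treated against day 4 EBs gave the effect of the solvent and of any added time. In limma 0 of the 10 genes passed, where 0.747% of all genes passed. At an unadjusted p under 0.05 stood 1 of the 10 (Sycp3) and 16.3% of all genes. Sycp3 read 7.38, 7.29 and 7.35 with DMSO, against 7.11, 6.70 and 6.98 in day 4 EBs (0.41 ± 0.17, adjusted p = 0.26), the EB level lying in the low-signal range. The groups did not overlap for Sycp3 or for Sycp1, which was lower with DMSO (-0.19 ± 0.09, adjusted p = 0.338), as for 22.4% of all genes. Stra8 differed by 0.27 ± 0.14 with overlapping groups (95% interval -0.03 to 0.57, adjusted p = 0.354).

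Across the 4 groups the order of Stra8 was ATRA, ES, then DMSO and day 4 EBs, at 10.30 ± 0.08, 8.81 ± 0.22, 6.62 ± 0.27 and 6.35 ± 0.17 (SD, n = 3 each). ATRA-treated EBs exceeded ES cells by 1.49 ± 0.14 (2.81-fold, adjusted p = 3.03e-06, limma), and DMSO-treated EBs were below ES cells by -2.19 ± 0.14 (adjusted p = 9.02e-08). The last 2 groups of that order did not differ beyond their spread. Dazl was highest in ES cells, with 9.17 ± 0.01 with ATRA, 8.78 ± 0.10 with DMSO, 8.91 ± 0.05 in day 4 EBs and 9.77 ± 0.11 in ES cells, and ATRA-treated EBs remained below ES cells (-0.61 ± 0.06, adjusted p = 1.03e-05). Mael likewise was 8.72 ± 0.004 with ATRA and 9.78 ± 0.21 in ES cells, a difference of -1.06 ± 0.11 (adjusted p = 6.70e-06). Tfap2c and Kit were highest with ATRA, above ES cells by 0.92 ± 0.09 and 0.58 ± 0.06, while their DMSO, EB and ES values overlapped. Rec8 was likewise highest with ATRA, at 8.76 ± 0.04 with ATRA, 8.39 ± 0.11 with DMSO, 8.39 ± 0.06 in day 4 EBs and 8.42 ± 0.09 in ES cells. Prdm1 was 9.95 ± 0.03, 10.23 ± 0.06, 10.18 ± 0.10 and 7.93 ± 0.13 in the ATRA, DMSO, day 4 EB and ES groups. Ddx4 did not pass in any of the 6 pairs of groups and averaged between 8.76 and 8.93.

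**Figure D2:**
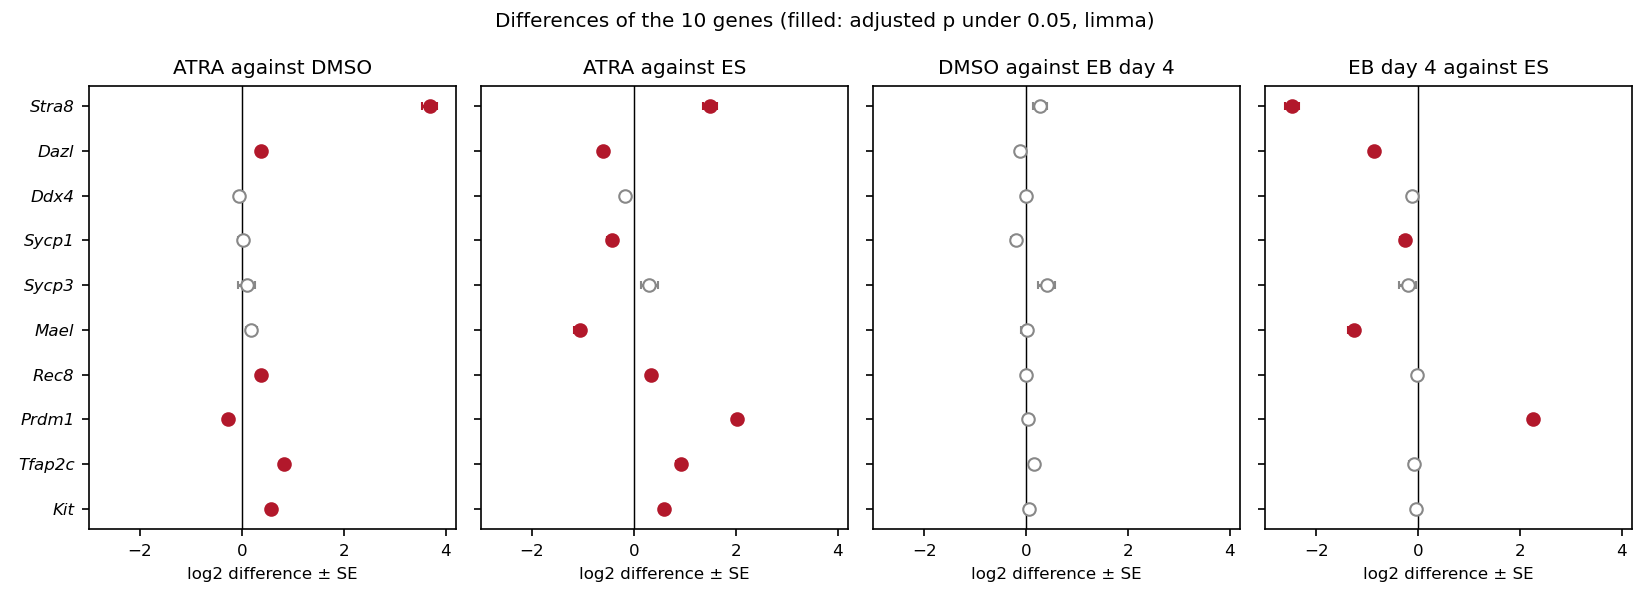
Log2 difference ± SE (x axis, limma fit to 12 arrays) of the 10 genes (rows) in 4 comparisons. Filled points had an adjusted p under 0.05. Stra8 stood at 3.68 for ATRA against DMSO, 1.49 for ATRA against ES and -2.47 for day 4 EBs against ES, and Prdm1 at 2.26 in the last.

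Counts in the other pairs, which share arrays with those above, were as follows. ATRA-treated against day 4 EBs, 5 of the 10 genes were higher and 1 lower, the same genes as against DMSO, where 18.4% of all genes passed, 7.79% higher and 10.6% lower. The groups did not overlap for 9 of the 10 genes and for 36.7% of all genes. Sycp3 missed the threshold (0.50 ± 0.17, adjusted p = 0.0579, limma) but passed under 5 alternatives (adjusted p 0.0124 to 0.0358), the replicate block among them (0.0222), and its EB level lay in the low-signal range. Of these calls, Dazl (0.26 ± 0.06) lost its call without EB 1 (0.23, adjusted p = 0.0561), and Prdm1 (-0.23 ± 0.07) lost its call without ATRA 1, ATRA 2, ATRA 3, EB 2 or EB 3 (-0.25 to -0.18, adjusted p 0.0653 to 0.137), and with quantile normalization, median centring or all probe sets tested (adjusted p 0.061 to 0.078). ATRA-treated EBs against ES cells, 5 were higher (Stra8, Rec8, Prdm1, Tfap2c, Kit) and 3 lower (Dazl, Sycp1, Mael), where 36.6% of all genes passed, 17.5% higher and 19.1% lower. The groups did not overlap for 8 of the 10 genes and for 47.4% of all genes. In that pair Ddx4 gained a call without ES 2 (-0.24, adjusted p = 0.0238) and Sycp3 without ES 1 (0.54, adjusted p = 0.00273). DMSO-treated EBs against ES cells, 1 was higher (Prdm1) and 4 lower (Stra8, Dazl, Sycp1, Mael), where 39% of all genes passed, 18.4% higher and 20.6% lower. The groups did not overlap for 5 of the 10 genes and for 47.5% of all genes, and Sycp3 gained a call without ES 1 (0.44, adjusted p = 0.00808).

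The wider germ line lists held 129 further measured genes. With ATRA against DMSO, 13 of them rose and 17 fell, 23.3% in all, beside 13.3% of all genes (6.26% higher and 7.05% lower), against which the list counts below also stand. Their median difference was -0.006, beside 0.01 for all genes. Among 11 regulators of meiotic entry, Stra8 and Dazl included, 6 rose and 0 fell. Dmrt1, a transcription factor gene that controls the choice between mitosis and meiosis in germ cells, rose by 1.02 ± 0.06 (10.17 with ATRA and 9.14 with DMSO, adjusted p = 1.66e-07, limma). Cyp26b1, which encodes a retinoic acid-degrading enzyme that delays meiosis in the fetal testis, rose by 0.69 ± 0.09, and Meioc, a gene needed to stay in meiotic prophase, by 0.52 ± 0.11. The other call, Rbm46 (0.29 ± 0.08), ended without ATRA 2, ATRA 3, DMSO 1 or DMSO 2 (0.24 to 0.30). It also ended with quantile normalization, median centring or all probe sets tested (adjusted p 0.0547 to 0.0673, limma). The median of this list was 0.29.

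Of 14 axis and cohesin genes, 2 rose (Rec8 and Hormad1) and 1 fell, with a median of 0.03. Hormad1 (0.30 ± 0.09) lost its call without ATRA 1, ATRA 2, ATRA 3, DMSO 2 or DMSO 3 (0.22 to 0.32), and 4930447C04Rik, the gene of a synaptonemal complex protein also called Six6os1 (-0.29 ± 0.08), without ATRA 1, ATRA 2, DMSO 1, DMSO 2 or DMSO 3 (-0.32 to -0.28). Both calls also ended with all probe sets tested, and that of Hormad1 with the mean of its probe sets (adjusted p 0.0661 to 0.082, limma). The share that passed was 21.4% in this list and 9.52% in the next, beside 13.3% of all genes. Of 21 recombination genes, 0 rose and 2 fell in limma, Mlh3, a mismatch repair gene of crossover formation (-0.33 ± 0.05, adjusted p = 0.00109), and Tex15 (-0.31 ± 0.07), whose call ended without ATRA 3 or DMSO 1 (-0.30 to -0.26). The ATRA level of Tex15 (6.93) lay in the low-signal range. Of 14 later germ cell markers, such as the protamine genes Prm1 and Prm2 and the zona pellucida genes, 0 passed in limma, with mean levels of 6.72 to 6.77 with ATRA and 6.69 to 6.72 with DMSO. Of 9 gonadal support cell markers 2 rose and 1 fell, with mean levels of 7.71 to 7.74 with ATRA and 7.59 to 7.69 with DMSO.

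Among 29 genes of germ cell RNA regulation and piRNAs, 3 rose and 1 fell with ATRA. Piwil4, a piRNA-binding Argonaute gene, rose by 0.52 ± 0.08 (7.60 with ATRA and 7.07 with DMSO, adjusted p = 0.00101, limma), and Tdrd12, a Tudor domain gene of the same pathway, fell by 0.47 on the log2 scale (adjusted p = 0.00498). The DMSO level of Piwil4 lay just inside the low-signal range. Among 29 genes of primordial germ cell specification and survival, 5 rose and 7 fell. Alpl, whose alkaline phosphatase marks these cells, rose by 0.52 ± 0.05 (12.16 with ATRA and 11.64 with DMSO), and the fucosyltransferase gene Fut4 by 0.52 ± 0.06. Otx2, an epiblast factor whose loss favours germ cell fate in mouse cell culture, fell by 2.17 on the log2 scale (8.75 with ATRA and 10.92 with DMSO, adjusted p = 1.52e-09). Of 13 genes around KIT, Kit rose and 3 fell: Kitl, the gene of its ligand (-0.51 ± 0.10, 6.92 with ATRA and 7.42 with DMSO), the transcription factor gene Mitf (-0.74 ± 0.07) and the ETS factor gene Etv5 (-0.22 ± 0.04). Receptor and ligand transcripts differed in opposite directions with ATRA, the Kitl level with ATRA lying in the low-signal range.

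Among 26 germ line genes reported elsewhere to be silenced by promoter methylation, 15.4% passed with ATRA in limma, beside 13.3% of all genes. Of these, 4 rose and 0 fell, and the median of the list was 0.11. They were Dazl, Hormad1, Tuba3a (0.60 ± 0.08, a testis tubulin gene whose near-identical copy Tuba3b can share its probes) and the bromodomain gene Brdt (0.30 ± 0.07), whose call ended without ATRA 3 or DMSO 3 (difference 0.26). The DMSO level of Brdt (6.93) lay in the low-signal range. The Hormad1 call ended without ATRA 1, ATRA 2, ATRA 3, DMSO 2 or DMSO 3, as given above. Of 21 repressors of germ line genes, 2 rose and 5 fell. Dnmt3l, which encodes the cofactor of the de novo DNA methyltransferases, fell by 1.12 on the log2 scale (10.65 with ATRA and 11.77 with DMSO, adjusted p = 2.09e-08), and the methyltransferase gene Dnmt3b by 0.54, whereas Dnmt3a rose by 0.25 ± 0.05 and the Polycomb gene Rybp by 0.25 ± 0.05. L3mbtl2, a subunit gene of the repressor complex (-0.24 ± 0.07), lost its call without any 1 of the 6 ATRA and DMSO arrays (-0.26 to -0.21). It also lost the call with median centring or all probe sets tested (adjusted p 0.0609 to 0.0633, limma). Dnmt3l was also the gene of the wider lists that passed with DMSO against day 4 EBs (0.33 ± 0.05, adjusted p = 0.013), a call that ended without DMSO 1, DMSO 3, EB 1 or EB 2 (0.29 to 0.34). That call also ended with only the 2 groups compared or without ES 2 and EB 2 together (adjusted p 0.0601 to 0.0918, limma).

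**Figure D3:**
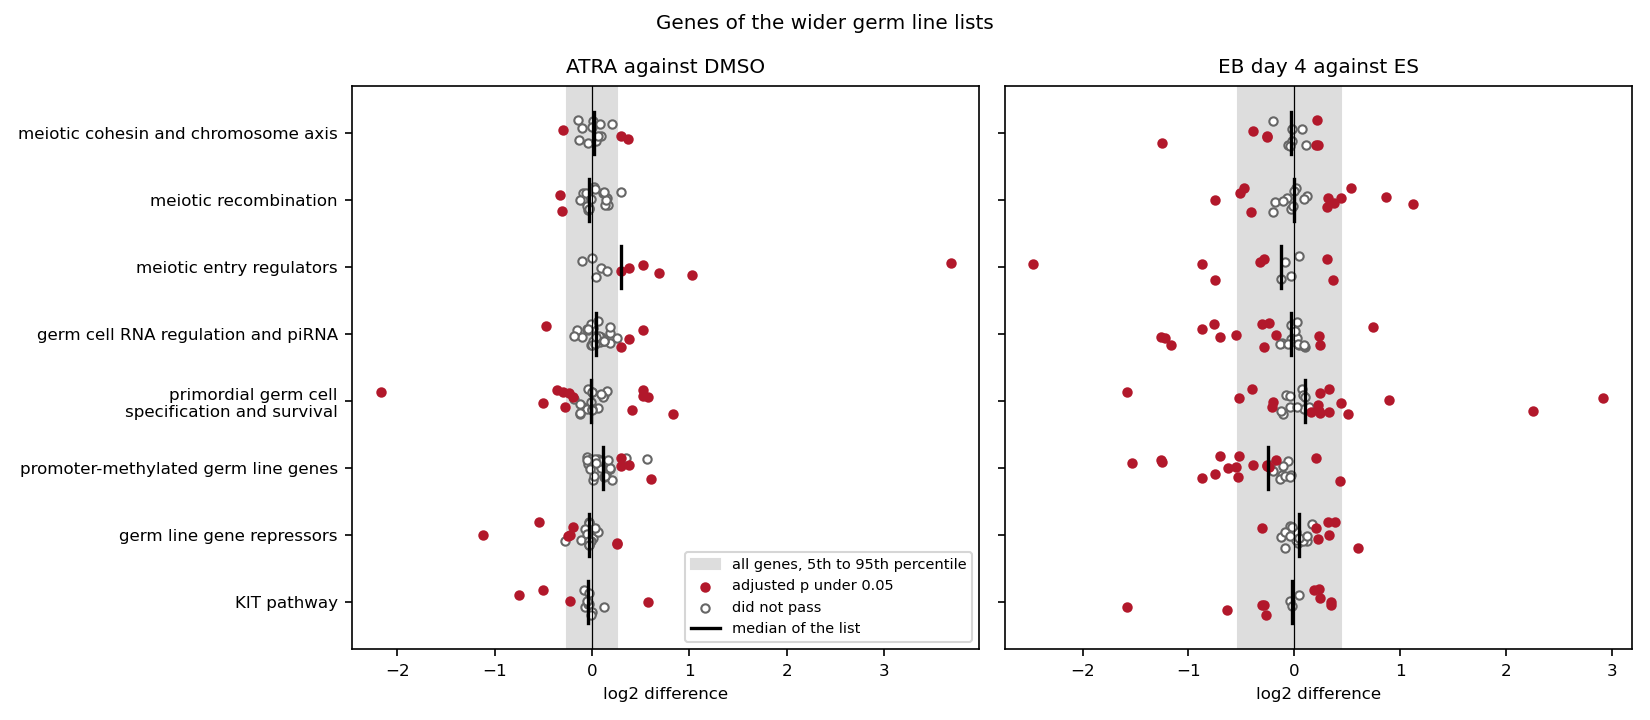
Log2 differences (x axis) of single genes in the 8 germ line lists (rows) for ATRA against DMSO and for day 4 EBs against ES cells. Filled points had an adjusted p under 0.05, black bars are list medians, and the grey band spans the 5th to 95th percentile of all genes. Regulators of meiotic entry had a median of 0.29 on the left, and promoter-methylated germ line genes a median of -0.25 on the right.

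In day 4 EBs against ES cells, 37 of the 129 further genes rose and 32 fell, 53.5% in all, beside 34.7% of all genes (17.8% higher and 16.9% lower), against which the list counts of this step also stand. Their median was 0.005, beside -0.0004 for all genes. The promoter-methylated germ line genes had 15 of 26 lower and 2 higher, with a median of -0.25. Beside Mael and Dazl, these included Slc25a31, a germ cell ADP/ATP carrier gene (-1.53 ± 0.13, 6.82 in day 4 EBs and 8.35 in ES cells), the synaptonemal complex gene Syce1 (-1.25 ± 0.10, adjusted p = 1.16e-06, limma) and the piRNA helicase gene Mov10l1 (-0.70 ± 0.08). The day 4 EB level of Slc25a31 lay in the low-signal range. Among RNA regulation and piRNA genes, 11 of 29 fell and 3 rose, with the Tudor domain genes Tdrkh (-1.22 ± 0.08) and Tdrd7 (-1.16 ± 0.07) and Piwil4 (-0.75 ± 0.08) lower. The day 4 EB level of Tdrkh (6.92) lay in the low-signal range, and its ES level (8.14) above it. Regulators of meiotic entry had 5 of 11 lower and 2 higher, with Meioc lower (-0.75 ± 0.11) and Dmrt1 higher (0.36 ± 0.06). These lower values came with the lower levels of 2-cell-like and fibroblast markers described above, whose part was not tested.

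Other groups split in the step to EBs. Of the recombination genes 7 of 21 rose and 4 fell, with Mei4, a gene of double-strand break formation (1.12 ± 0.06, 9.76 in day 4 EBs and 8.63 in ES cells), Cntd1 (0.86 ± 0.07) and Mlh3 (0.44 ± 0.05) higher and Rec114 (-0.51 ± 0.06) lower. Of the axis and cohesin genes 3 of 14 rose and 4 fell, with the meiotic cohesin gene Smc1b lower (-0.39 ± 0.07). Of the primordial germ cell genes 13 of 29 were higher and 5 lower, with Otx2 (2.92 ± 0.06), Prdm1 and the interferon-induced membrane protein gene Ifitm1 (0.90 ± 0.06) higher and Kitl (-1.58 ± 0.10, 7.35 in day 4 EBs and 8.93 in ES cells) and Bmp8b (-0.52 ± 0.07) lower. Of the repressors 6 of 21 rose and 1 fell: Dnmt3l (0.60 ± 0.05), Max (0.38 ± 0.05), Mga (0.32 ± 0.06) and Hdac2 (0.32 ± 0.06) were among those higher, and E2f6 was lower (-0.30 ± 0.06). In the KIT list 5 of 13 rose and 5 fell, with the adaptor gene Gab2 lower (-0.64 ± 0.05) and Etv5 higher (0.34 ± 0.04).

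Genes whose profile over the 12 arrays was most like that of Stra8 were sought among 756 genes whose group means span at least 1 on the log2 scale. The first 6 by Pearson correlation were Spsb1 (0.9963), Hoxa3 (0.9879), Igsf21 (0.9856), Rarb (0.9855), Hoxa5 (0.9821) and Prrx2 (0.9802). The 12 points share 4 groups, so the coefficients describe group differences and carry no p. Rarb, a retinoic acid receptor gene, averaged 8.65 with ATRA, 6.98 with DMSO, 7.02 in day 4 EBs and 8.01 in ES cells. Hoxa5, a homeobox gene, averaged 10.10, 7.83, 8.03 and 9.33 in the same groups. Spsb1 averaged 10.42, 8.89, 8.87 and 9.78. Each of the 6 genes, like Stra8, was highest with ATRA, next in ES cells and lower in the other EB groups. The choice by correlation with Stra8 favours this order.

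**Figure D4:**
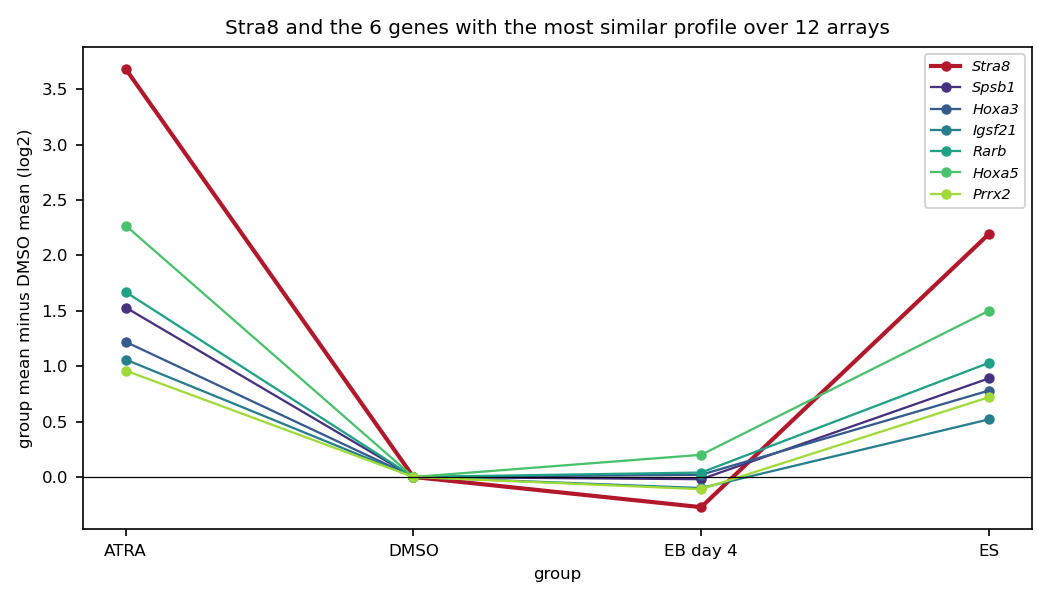
Group mean minus DMSO group mean (y axis, log2) of Stra8 and the 6 genes most like it, in the ATRA, DMSO, day 4 EB and ES groups (x axis). Lines join the means of 1 gene and do not stand for time. All 7 genes are above their DMSO level with ATRA and in ES cells, and Stra8 has the largest span.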

How the data were processed

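Per the labels' protocols, RNeasy total RNA was turned into biotinylated cDNA with the Ambion WT Expression kit and hybridised to Affymetrix arrays. The authors deposited 1 table of 35556 probe sets by 12 arrays, read here as log2 values. That scale is inferred from the values. The sources used here do not give the background correction, normalization or summarization. Precision is limited by the number of arrays.

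By the platform annotation, 21789 probe sets had 1 symbol, 1621 several, and 12146 were unlisted. Each gene took the single-symbol probe set of highest mean, giving 19938 genes, with no filter on low values. Group means were fitted with limma 3.58.1 in R 4.3.3 (lmFit, contrasts, eBayes), with 8 residual and 3.93 prior degrees of freedom. Tests were two-sided with Benjamini-Hochberg adjustment across genes and a threshold of 0.05. The code was tested on simulated data.

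The 10 genes and all lists were chosen with earlier results of these data known. Named list genes are among up to 5 called genes per list and comparison, by smallest adjusted p. Genes of similar profile were ranked by Pearson correlation, without microRNAs, predicted genes and vomeronasal or olfactory receptors. Promoter windows are from RefSeq (GRCm38.p6). Alternatives were other scalings, filters, probe set rules, priors, weights, array subsets, the replicate number as a block and stricter thresholds. Leaving out ES 2 and EB 2 together was added after the data were seen.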

Additional observations from a re-analysis of the deposited data

How the results depend on the processing

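The 60 differences of the 10 genes (6 comparisons) were each recomputed 18 or 19 times, 1116 values in all. Of these, 1032 kept their direction and their side of the threshold. The 30 called differences never changed direction, and 38 of their 559 recomputed values lost the call. Stra8 kept its call in all 5 comparisons in which it had one, with 3.53 to 3.80 for ATRA against DMSO and -2.67 to -2.38 for day 4 EBs against ES cells. Of the 557 recomputed values of differences that were not called, 13 gained a call and 33 changed direction.

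With a 1.5-fold limit, 2 of the 10 genes passed for ATRA against DMSO, 3 for ATRA against day 4 EBs (372 of all genes, 1.87%) and 5 for ATRA against ES cells (1501 of all genes, 7.53%), with 6 genes of the wider lists and 342 of all genes for ATRA against DMSO, and 17 and 1433 for day 4 EBs against ES cells. Array weights gave 4311 genes for ATRA against DMSO and an adjusted p of 0.01 gave 1605, in place of 2655. Without genes below the median of mean value, 3 of the members still tested passed for day 4 EBs against ES cells and 3 for DMSO against ES cells. Stra8 and Sycp1, called there in the main fit, were then not tested, and neither were Sycp3 and Tfap2c. Stra8 and Tfap2c thus also went untested for ATRA against DMSO. Without this filter, 34.7% of all genes passed for day 4 EBs against ES cells and 39% for DMSO against ES cells. Those shares cover all genes, and the share among the genes kept by the filter is not given here. The filtered member counts thus have no matching background. For DMSO against day 4 EBs the count of 149 genes moved to 253 with quantile normalization, 365 without the lowest 25% of genes by mean, 761 without those below the median, 476 over all probe sets, 626 with an intensity trend, 25 with only the 2 groups, 62 with the replicate block, 5 at an adjusted p of 0.01, 18 with the 1.5-fold limit, 27 without ES 2 and EB 2, and 0 to 128 without single arrays (0 without DMSO 1 or EB 1, 2 without DMSO 3, 33 without EB 2 and 48 without EB 3). The 1 gene of the wider lists became 2, 3, 8 and 8 with quantile normalization, the 2 filters and the trend, and 0 with only the 2 groups, at 0.01, with the 1.5-fold limit, without ES 2 and EB 2, and at the low end without single arrays (0 to 1). Causes were not tested where fewer genes or arrays do not show them.

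The replicate numbers did not pair the arrays throughout: same-numbered deviations correlated above 0.1 in 2 of 18 pairs (-0.126 to 0.506). Both were between day 4 EBs and ES cells, at 0.303 for replicate 1 and 0.506 for replicate 2. Replicate 3 gave -0.065 there, and unlike numbers reached 0.312. In 6 of 18 matches of an array with the arrays of another group its own number fitted best. These values do not settle whether EB and ES arrays were paired. With the replicate block, 6 of the 10 genes and 12.8% of all genes (2553) passed for ATRA against DMSO, and 4 of the 10 and 34.3% of all genes (6848) for day 4 EBs against ES cells, where Sycp1 lost its call (adjusted p = 0.0576, limma). For ATRA against day 4 EBs 7 of the 10 and 17.6% of all genes passed, Sycp3 gaining a call (adjusted p = 0.0222). The call of Sycp1 there also ended with quantile normalization, median centring, all probe sets and only the 2 groups (adjusted p up to 0.139).

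Changes of direction, all in uncalled differences, were these. Sycp1 for ATRA against DMSO was -0.0088 to 0.049 without single arrays and -0.0014 with quantile normalization. Rec8 for day 4 EBs against ES was -0.057 to 0.023 without single arrays, 0.0053 with quantile normalization and 0.0023 with median centring. Kit for day 4 EBs against ES was -0.091 to 0.023 without single arrays. Sycp3 for day 4 EBs against ES was -0.38 to 0.037 without single arrays. Ddx4 for DMSO against day 4 EBs was -0.028 to 0.035 without single arrays, -0.0062 with quantile normalization, -0.012 with array weights and -0.0016 without ES 2 and EB 2. Mael for DMSO against day 4 EBs was -0.081 to 0.10 without single arrays, -0.049 with array weights and -0.081 without ES 2 and EB 2. Rec8 for DMSO against day 4 EBs was -0.054 to 0.053 without single arrays. Prdm1 for DMSO against day 4 EBs was -0.0061 to 0.094 without single arrays. Kit for DMSO against day 4 EBs was -0.017 to 0.10 without single arrays. Rec8 for DMSO against ES was -0.081 to 0.027 without single arrays, 0.018 with quantile normalization and 0.027 with median centring. Kit for DMSO against ES was -0.026 to 0.051 without single arrays, -0.0092 with quantile normalization and -0.017 without ES 2 and EB 2.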

Other observations

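Profiles over the 12 arrays most like those of the other members were listed in the same way as for Stra8, as descriptions. For Prdm1 the first 6 genes were Lrp2 (0.9968), Cubn (0.9960), Egln3, Glipr1, Ptch1 and Cd59a (0.9929). Lrp2 and Cubn encode endocytic receptors of visceral endoderm, and Lrp2 averaged 11.67 with ATRA, 11.96 with DMSO, 11.82 in day 4 EBs and 8.44 in ES cells. Tfap2c and Kit shared 5 of their 6 nearest genes: Gdpd5, Acp5, Tmem253, Epo and Stra6. Stra6, the gene of a receptor for retinol-binding protein, averaged 11.01 with ATRA, 9.06 with DMSO, 9.03 in day 4 EBs and 8.69 in ES cells, and Epo, the erythropoietin gene, 8.64, 7.31, 7.15 and 7.20. For Dazl the first 6 were Cbln1 (0.9847), Sema7a, Heg1, Arhgef26, Ppp1r14d and Ehd2 (0.9743), each highest in ES cells. Arhgef26 averaged 7.92 with ATRA, 7.04 with DMSO, 7.16 in day 4 EBs and 9.33 in ES cells.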
